A study of Mus musculus with 14 samples.

Results

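The 8 ischemic hemispheres of a cortistatin study in mice were placed on a scale of injury response, and the genes that followed that scale were described. The libraries were the 8 of the 14 deposited that came from hemispheres ipsilateral to a middle cerebral artery occlusion (MCAO), 5 from Cort-/- and 3 from Cort+/+ mice. Each library received a score, the mean over Gfap, Vim, Cd44, Lgals3, Cd68 and Mki67 of its log2(RPKM + 0.1) value, centred and divided by its SD over these 8 libraries. RPKM is the number of reads on a gene scaled by gene length and by library size. Genes were then selected on their Spearman correlation (rho) with the score, so their rank against it is a description that carries no test. The 6 score genes were left out of every count.

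All animals were male C57BL/6J-background mice of 12 weeks, either wild type (Cort+/+) or deficient in the gene for the neuropeptide cortistatin (Cort-/-), and all had the same surgery under isoflurane with meloxicam. A filament passed through the left carotid closed the artery for 20 min, which the protocol calls a mild model, and brains were taken 48 h after the stroke. Whole hemispheres were used, the ischemic one for MCAO libraries and the opposite one for the 6 contralateral (CL) libraries, 3 per genotype. The methods name 5 MCAO replicates and say that replicates which grouped clearly were kept, and the Cort+/+ MCAO libraries analysed here are numbered 2, 3 and 4. Labels do not tie a CL library to the MCAO library of the same brain. The Cort transcript checked the labels, since it stood at 3.36 to 4.44 RPKM in the 3 Cort+/+ MCAO libraries and at 0 to 0.136 RPKM in the 5 Cort-/- ones.

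After a stroke, astrocytes at the lesion become reactive and enlarge their cytoskeleton, microglia divide and turn phagocytic, and monocytes and other leukocytes enter from the blood. Injury also starts an interferon response, in which secreted interferons act through receptors and transcription factors on a broad set of target genes. Occlusion of the middle cerebral artery by a filament commonly injures the striatum, whose output cells are the medium spiny neurons. The score genes sample these processes. Gfap and Vim encode intermediate filaments of reactive astrocytes, Cd44 a receptor for hyaluronan, Lgals3 and Cd68 proteins of activated phagocytes, and Mki67 a nuclear protein of dividing cells.

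The MCAO libraries held 25989673 to 43032293 reads on genes, and the CL libraries 33057416 to 39110996. The score went with depth (rho 0.69 over 8 libraries, 0.30 within the 5 of Cort-/-). It also went with the number of genes above 0 (rho 0.88, and 0.90 within Cort-/-). In the 3 Cort+/+ libraries, in score order, depth was 31206541, 35601811 and 40174122 reads, and genes above 0 were 35078, 35487 and 36427. Both thus stood in full score order in Cort+/+. With every library thinned to 25989673 reads, 522 genes were higher and 277 lower with the score, against 573 and 280 at full depth. Cort-/- replicate 4, the library of highest score, was the lowest in markers of the hypothalamus, and counts without it were 515 and 193.

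The score separated the ischemic hemispheres, with uneven gaps between neighbours. In order of score the libraries were Cort+/+ replicate 4 (−1.66), Cort-/- replicate 3 (−0.94), Cort+/+ replicate 2 (−0.26), Cort-/- replicate 2 (−0.11), Cort+/+ replicate 3 (0.31), Cort-/- replicate 5 (0.40), Cort-/- replicate 1 (1.05) and Cort-/- replicate 4 (1.23). Values given below for 8 libraries follow this order. Gfap stood at 120, 149, 207, 254, 304, 287, 361 and 348 RPKM, against 37.9 to 132 RPKM in CL. Vim stood at 55.7, 58.6, 72.1, 82.2, 83.7, 84.5, 126 and 163 RPKM, with CL libraries at 13.98 to 30.6. The least injured hemisphere by this scale thus fell inside the CL range of Gfap and outside that of Vim. Lgals3 ranged from 3.64 to 13.1 RPKM (CL 0.256 to 1.70) and Cd44 from 1.61 to 5.14 (CL 0.616 to 1.12). Cd68 ranged from 16.3 to 43.2 (CL 6.26 to 11.7) and Mki67 from 0.819 to 2.80 (CL 0.139 to 0.392). None of these 4 overlapped CL. For comparison, every MCAO library lay above every CL library for 597 (3.95%) of the 15125 genes ranked below. Any pair of the 6 genes had a rho of 0.93 to 1, which describes the genes that define the score and no others.

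Genotypes overlapped on the scale. The mean score was 0.32 ± 0.89 in Cort-/- (SD, n = 5) and −0.54 ± 1.01 in Cort+/+ (SD, n = 3), a difference of 0.87 that an exact two-sided permutation test over all 56 divisions did not separate (p = 0.214, where the smallest possible is 0.0179). Without Cort+/+ replicate 4, the lowest library, the difference was 0.38. CL libraries placed on the same scale lay at −4.99 to −2.86, all below the lowest MCAO library. Those of highest score were Cort+/+ replicate 1 (−3.29) and Cort-/- replicate 2 (−2.86), 1 of each genotype.

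**Figure D1:**
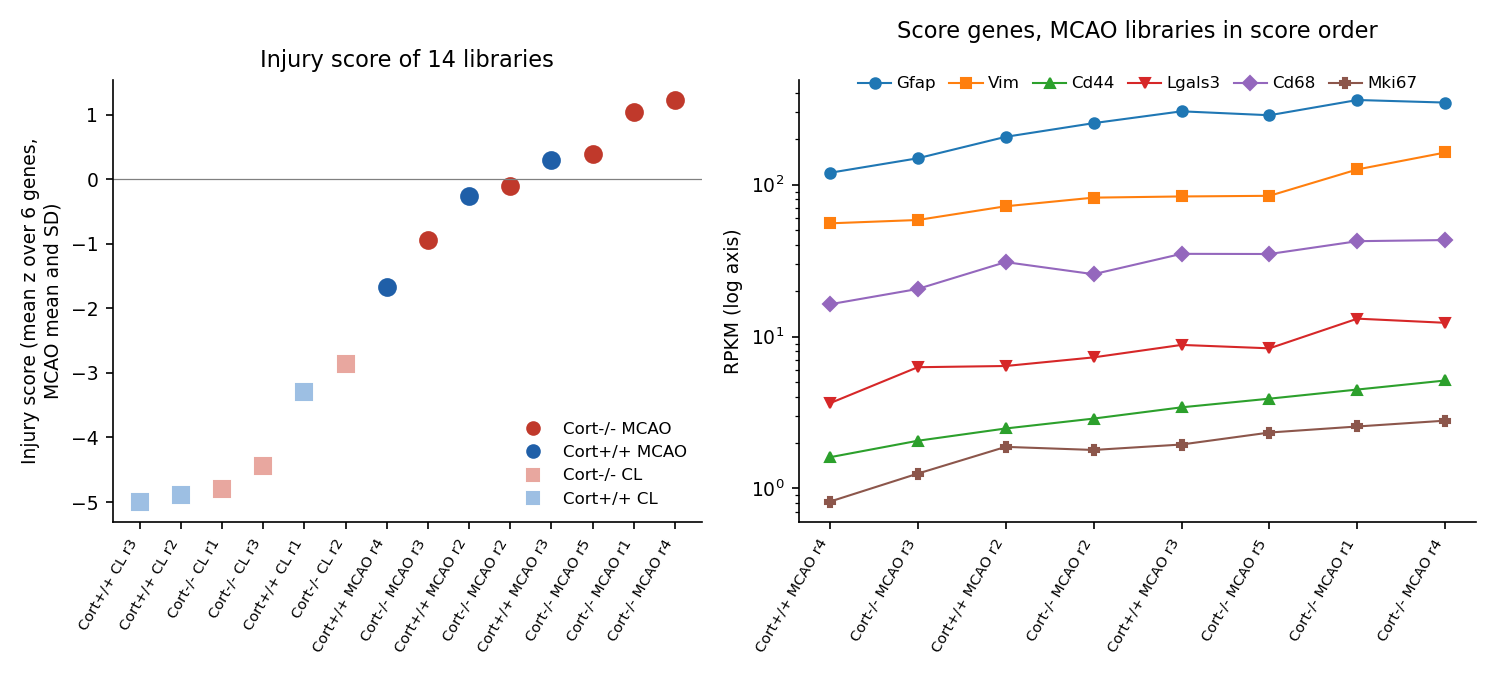
Injury score of each library and the 6 genes behind it, by genotype and hemisphere; scores are in SD units of the 8 MCAO libraries. The MCAO libraries run from −1.66 to 1.23 with both genotypes interleaved, and the 6 CL libraries lie at −2.86 or lower.

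Of 15125 genes that averaged 1 RPKM or more over the 8 libraries, 573 (3.79%) were higher with the score at a rho of at least 0.9 and 280 (1.85%) lower at −0.9 or below. The sides depended on scaling, with 604 and 224 genes after median-ratio scaling and 720 and 81 after rescaling to TPM, so 67.2%, 72.9% and 89.9% of the ranked genes were higher. The higher genes were the steeper ones. A unit of score corresponded to a median slope of 0.27 on the log2 scale among them (0.02 to 1.27), which is 1.20-fold, and to −0.11 (−0.40 to −0.02) among the lower genes, which is 0.925-fold. Slopes come from a least squares fit of log2(RPKM + 0.1) on genotype and score. A slope of at least 0.5 was found for 112 of the 573 higher genes. At the threshold, Tmsb4x, Tpt1 and Trf lay just inside at a rho of 0.90 and Rpl36a, Mapk3 and Cap1 just outside at 0.88. On the lower side the microRNA host Mir770, Calm3 and Pcp4 lay inside at −0.90, and Meg3, Syn1 and Gm49948 outside at −0.88, where Mir770 and Meg3, and Pcp4 and Gm49948, share a locus and may share reads.

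The order was also read within each genotype. In the 5 Cort-/- libraries alone 1677 genes (11.1%) were higher and 1427 (9.43%) lower, and in the 3 Cort+/+ libraries 2719 genes (18%) stood in score order and 2659 (17.6%) in reverse. Of the 573 higher genes 484 (84.5%) were also higher in Cort-/- and in order in Cort+/+, and of the 280 lower genes 224 (80%) were lower in Cort-/- and in reverse order in Cort+/+, shares that the choice over the same 8 libraries largely fixes. The Cort+/+ libraries have no part in the choice made in Cort-/- alone. Of the 1677 genes chosen there, 787 (46.9%) were in score order in Cort+/+ and 93 (5.55%) in reverse order, against the 18% and 17.6% of all genes. Of the 1427 lower ones, 535 (37.5%) were in reverse order and 54 (3.78%) in order. On TPM the share for higher genes became 62.5% and that for lower genes 18.8%. The share of all genes on TPM is not given here, so neither value can be set against it. The 18.8% lies near the 17.6% of all genes on RPKM, but that is another scaling and decides nothing for TPM. With only 3 libraries, of which replicate 4 is the lowest by a wide margin, an order in Cort+/+ rests on few values. Depth and the number of genes above 0 stood in that same order, so the score cannot be told apart from them in Cort+/+.

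A perfect order over all 8 libraries was found for 24 genes and a perfect reverse order for 8. The 24 were Arhgap11a, Card19, Cdk2, Col4a1, Dcn, Ehd2, Fes, Flna, Flnc, Gbp5, Inpp5d, Mcm4, Mcur1, Osmr, Parp9, Pdlim4, Piezo1, Plp2, Rps28, Timeless, Tln1, Tnfrsf12a, Tpm4 and Xaf1. They include actin-binding and adhesion proteins (the filamins Flna and Flnc, talin Tln1, tropomyosin Tpm4), replication and cell cycle genes (Cdk2, Mcm4, Timeless), and interferon-induced genes (Gbp5, Parp9, Xaf1). The 8 in reverse were Arhgap6, Cdk5r1, Gprasp2, Nalcn, Nsg2, Peg3, Slc25a22 and Strip2, among them the neuronal activator of Cdk5 (Cdk5r1), the sodium leak channel Nalcn and the endosomal protein Nsg2. Flnc had a slope of 0.48 ± 0.08 (SE), while Cdk5r1 (−0.07 ± 0.02) and Nsg2 (−0.09 ± 0.02) changed little across the whole range.

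Genes were next read by cell type and pathway, in lists chosen with earlier results of these data known. In whole hemispheres, fewer cells of a type and less RNA per cell cannot be told apart. The reactive astrocyte, phagocyte and cell cycle lists resemble the score genes, so their rank with the score is partly built in. Over all 15125 genes the median rho was −0.05 and the median slope −0.002, so list medians are read against values near 0.

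**Figure D2:**
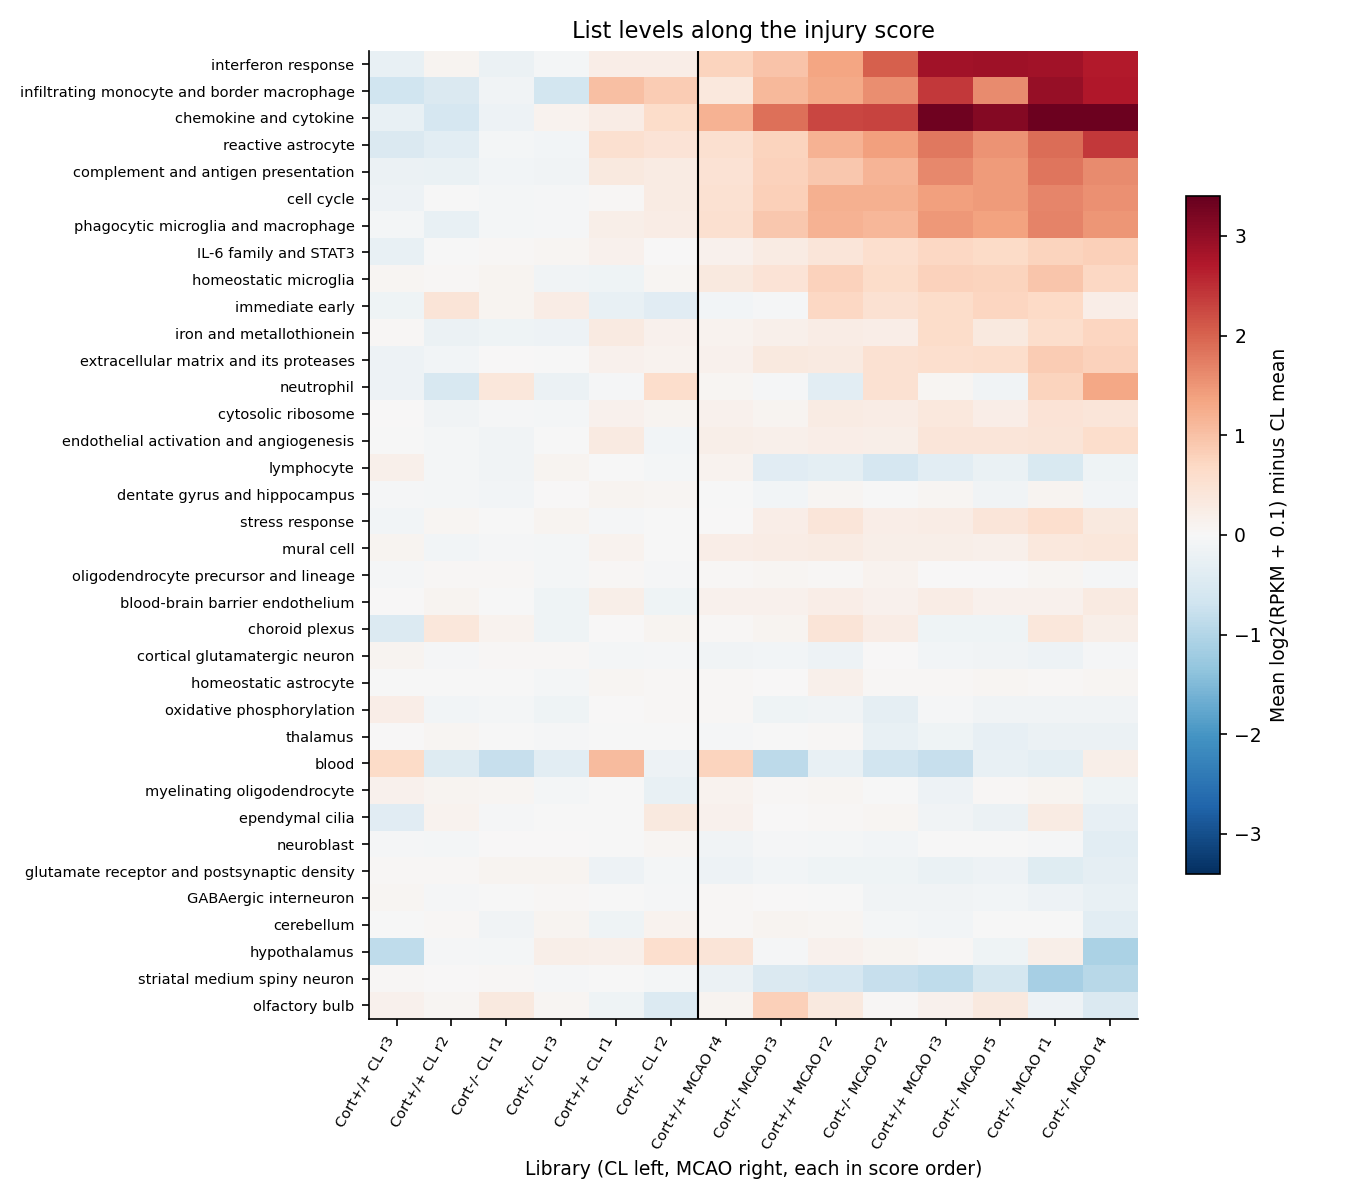
Mean log2(RPKM + 0.1) of each gene list in every library, relative to the mean of the 6 CL libraries, with libraries in order of score. The reactive astrocyte, interferon, chemokine, complement, phagocyte and cell cycle lists are higher toward the right, the medium spiny neuron list descends from −0.20 to −1.13, and cortical glutamatergic and homeostatic astrocyte lists stay within 0.2 of CL.

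Of the 20 reactive astrocyte genes 18 were at 1 RPKM or more, all 18 with a positive rho, and 12 reached 0.9 (median rho 0.93, median slope 0.59). In Cort-/- alone 15 of the 18 were higher, and in Cort+/+ 16 were in order. Serpina3n, a secreted protease inhibitor of reactive astrocytes (chr12:104372810-104380597, GRCm39), stood at 27.1, 36.9, 51.0, 76.5, 149, 105, 147 and 214 RPKM. Its CL libraries ran from 9.72 to 59.6 RPKM, so the 3 lowest MCAO libraries lay inside the CL range and the upper 5 above it. The slope was 1.10 ± 0.14 (SE), and the MCAO hemispheres lay above CL by 1.99 ± 0.56 on the log2 scale (limma, adjusted p = 0.0333). Timp1, an inhibitor of metalloproteinases (chrX:20736316-20740976), showed 1.64, 3.11, 4.26, 6.14, 8.55, 5.88, 10.997 and 17.7 RPKM, against 0.326 to 2.37 in CL. Only the lowest MCAO library overlapped CL. Osmr, the receptor subunit for oncostatin M, was in perfect order from 1.05 to 5.21 RPKM with a slope of 0.74 ± 0.07.

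Serpina3n belongs to a cluster of near-identical genes, and its reads, like those of Ifit3, C4b, Ccl12 and the H2 genes, may be shared with paralogs. The small heat shock protein gene Hspb1 ran from 4.86 to 26.9 RPKM (rho 0.90) and S100a10, an annexin partner, from 23.0 to 44.9 (rho 0.98). Lcn2, the secreted iron-binding protein lipocalin 2, had the steepest slope of the list at 1.60 with a rho of 0.88, from 0.993 to 30.8 RPKM, and it was not called between MCAO and CL (1.56 on the log2 scale, adjusted p over 0.05 in limma). Nes, encoding the filament protein nestin, was called above CL (log2 difference 1.71) but had a rho of 0.62, with its 8 libraries at 4.24 to 8.26 RPKM.

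Astrocyte genes of normal function did not move as a group. Of 16 such genes, Atp1b2 (rho 0.95) and Aldh1l1 (0.93) were higher and Slc6a11 (−0.93) was lower with the score, and the median rho was −0.08. Slc6a11, the GABA transporter GAT3, stood at 77.2, 76.5, 72.5, 61.3, 54.3, 57.0, 56.6 and 42.3 RPKM. The 3 lowest-scoring hemispheres were inside or above the CL range of 67.1 to 74.6 and the other 5 were below it, and the mean difference from CL was small (−0.17 on the log2 scale, limma adjusted p = 0.342). The glutamate transporter gene Slc1a2 (rho −0.62) and the glutamine synthetase gene Glul (369 to 442 RPKM, rho −0.67) leaned lower without reaching the threshold.

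Microglial and phagocyte genes were read in separate lists. Of 16 phagocytic genes at 1 RPKM or more 8 were higher (median rho 0.89, median slope 0.36), and 14 of 15 tested were above CL. Spp1, the secreted phosphoprotein osteopontin (chr5:104582165-104589235), stood at 22.4, 50.1, 72.8, 68.8, 154, 83.7, 164 and 166 RPKM, all above the CL range of 7.36 to 12.7. The slope was 1.05 ± 0.14, which spread the ischemic hemispheres over several fold, and the log2 difference from CL was 2.99 ± 0.39 (limma, adjusted p = 0.0009). Cathepsin D (Ctsd), a lysosomal protease, was higher at 219, 282, 369, 343, 385, 374, 464 and 389 RPKM against 144 to 182 in CL, and the groups did not overlap. Cd63, Ctsb, Ctss, Ctsz, Cd9 and Axl also passed the threshold.

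Apoe, a lipid carrier counted in the same list, went the other way. Its 8 libraries read 586, 570, 552, 581, 569, 525, 562 and 479 RPKM (rho −0.76, slope −0.06 ± 0.04) inside or just below a CL range of 498 to 641. Among 11 genes of resting microglia 2 were higher, Csf1r among them (rho 0.93), and the median rho was 0.62. Csf1r, the receptor that maintains microglia, ran from 22.3 to 36.1 RPKM. P2ry12, the purinergic receptor of ramified microglia, had a rho of −0.60 within the narrow range of 8.86 to 10.5 RPKM.

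Markers of blood-derived cells were mostly too low to rank. Of 14 genes of monocytes and border macrophages 4 reached 1 RPKM, against 3 of 12 for neutrophils and 3 of 15 for lymphocytes. Msr1, a scavenger receptor of macrophages (chr8:40034726-40095714), stood at 0.339, 0.897, 1.54, 1.56, 2.56, 1.55, 2.91 and 3.78 RPKM, all above the CL range of 0.0308 to 0.303. Its slope was 1.04 ± 0.13 and its log2 difference from CL 2.95 ± 0.44. Every CL value was below 1 RPKM, so Msr1 passed the filter through its MCAO values, and that difference is a description. Lyz2, a lysozyme of myeloid cells, ran 9.84, 14.8, 14.7, 14.8, 21.3, 17.7, 46.7 and 22.8 RPKM, with Cort-/- replicate 1 far above the rest of its group. The neutrophil genes S100a9 (rho 0.43) and S100a8 (0.69) did not reach the threshold. Cd4, a T cell co-receptor that some myeloid cells also carry, was called lower in MCAO (2.82, 1.53, 1.39, 1.03, 1.21, 1.80, 0.525 and 1.42 RPKM against 3.47 to 4.51 in CL; log2 difference −1.38 ± 0.24, limma adjusted p = 0.00323), and its order among the hemispheres was loose (rho −0.43).

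Interferon response genes all had a positive rho with the score, few reached 0.9, and their mean level flattened in the upper 4 hemispheres. That mean level had a rho of 0.83 over the 8 libraries and 0.60 within the 5 of Cort-/-. All 20 genes of the list were at 1 RPKM or more, all had a rho between 0.74 and 1, all 20 were in order in the 3 Cort+/+ libraries and 5 of 20 were higher in the 5 Cort-/- ones, and the 18 tested were all called above CL with a median log2 difference of 2.03. A gene low in CL can pass the filter through MCAO, so that count above CL is partly set by the filter. Only Xaf1, Cxcl10 and Gbp2 reached 0.9. The mean list level over CL was 0.76, 0.97, 1.34, 2.04, 2.87, 2.88, 2.87 and 2.68 on the log2 scale, thus nearly equal in the 4 hemispheres of highest score. Isg15, a ubiquitin-like protein, illustrated it at 2.53, 2.37, 4.67, 10.7, 20.8, 19.4, 20.2 and 16.8 RPKM, against 0.835 to 1.84 in CL. Ifit3, which binds the machinery of antiviral signalling, ran 5.41, 8.91, 10.3, 16.5, 30.5, 32.6, 30.1 and 28.2 RPKM against 2.53 to 4.96, and Bst2, a tether of budding virions, 4.65, 4.97, 10.006, 16.4, 24.3, 26.1, 30.1 and 22.1. The 8 MCAO libraries of Isg15 and Ifit3 lay above every CL library, and the highest of all on the injury scale was not the highest for any of the 3 genes.

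Promoter letters were examined for the higher and lower genes because target genes of interferon share a short element. The motif searched was GAAANNGAA, or TTCNNTTTC when read on the other strand, within 250 bases before to 50 after each start site (RefSeq, GRCm38.p6), where 10273 of the 15125 genes had a promoter entry. It was found in 6.81% of all 13280 windows, in 8.50% of 541 windows of the higher genes, in 6.98% of 301 windows of the lower genes and in 55.6% of 18 windows of the interferon list. The promoters of Cxcl10, Isg15, Ifit3 and Ms4a6c are shown since these genes have large slopes or belong to the interferon list, with the matches in capitals, each 5′ to 3′ on the strand of the gene. Cxcl10 lies at chr5:92349020-92349139 (minus strand), Isg15 at chr4:156200821-156200940 (minus strand), Ifit3 at chr19:34583371-34583490 (plus strand) and Ms4a6c at chr19:11469179-11469298 (plus strand).
Cxcl10: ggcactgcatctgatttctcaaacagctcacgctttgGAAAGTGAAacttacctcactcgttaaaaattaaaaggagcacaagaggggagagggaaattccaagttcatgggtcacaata
Isg15: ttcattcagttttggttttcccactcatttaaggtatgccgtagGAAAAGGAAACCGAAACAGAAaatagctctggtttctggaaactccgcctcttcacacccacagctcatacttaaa
Ifit3: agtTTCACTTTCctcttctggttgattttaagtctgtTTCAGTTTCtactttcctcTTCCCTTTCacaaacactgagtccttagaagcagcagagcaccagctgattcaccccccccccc
Ms4a6c: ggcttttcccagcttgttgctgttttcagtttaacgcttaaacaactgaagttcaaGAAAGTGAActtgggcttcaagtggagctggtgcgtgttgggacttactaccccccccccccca
Isg15 carries 3 overlapping matches, the nearest 66 bases upstream of the start, and Ifit3 carries 3 separate ones, the nearest at 102 bases. Cxcl10 has 1 at 213 bases and Ms4a6c 1 at 133 bases. A match describes the letters in the window and shows no binding.

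Other elements were searched in the same windows, both strands included. The STAT palindrome TTCNNNGAA was in 6.49% of all windows, 9.61% of those of higher genes and 6.98% of those of lower genes. The AP-1 element TGANTCA was in 4.78%, 8.50% and 2.66%, and the NF-kappaB-like GGGNNTTCC in 7.06%, 9.98% and 3.99%. The CRE TGACGTCA was in 2.88%, 1.66% and 4.32%, and the E2F-like TTTNGCGC in 2.25%, 2.22% and 2.99%. These are shares of windows, and no test was made of them.

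Chemokine genes had some of the steepest slopes. Of 15 genes 6 reached 1 RPKM, and all 6 were called above CL. A gene low in CL, such as Cxcl10, passes that filter only through MCAO, so this count is partly set by the filter. Cxcl16, Tgfb1 and Ccl12 were higher with the score. Ccl12, a ligand of the monocyte receptor CCR2 (chr11:81992645-81994466), stood at 1.68, 3.73, 3.62, 6.47, 17.7, 15.1, 15.5 and 20.9 RPKM against 0.345 to 1.12 in CL. The slope was 1.27 ± 0.25, and the upper 4 hemispheres all lay well above the lower 4. Cxcl10, a ligand of the T cell receptor CXCR3 (chr5:92494497-92496748), read 0.744, 1.32, 0.823, 2.30, 4.75, 5.44, 4.85 and 6.36 RPKM, again with the upper 4 above the lower 4, and every value was above the CL range of 0.0705 to 0.554. Ccl3 had a rho of 0.83 and Tgfb1, a cytokine made by microglia and macrophages, 0.95.

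Of the 16 complement and antigen presentation genes at 1 RPKM or more, 10 were higher with the score (median rho 0.93, median slope 0.52). C1qa, a subunit of the recognition molecule C1q, stood at 56.6, 72.5, 100.5, 96.9, 121, 111, 163 and 143 RPKM, with the lowest library inside the CL range of 36.0 to 57.1 and the other 7 above it. C1qb and C1qc, the other subunits, had a rho of 0.93 and 0.95, and the receptors C3ar1 and C5ar1 0.95 each. Of the genes of MHC class I presentation Tap1 and H2-D1 had a rho of 0.95, H2-K1 0.93 and the proteasome subunit Psmb8 0.98, while the light chain B2m missed the threshold at 0.83. The class II gene H2-Ab1 had a rho of 0.52, and H2-Aa and Cd74 both 0.24, although limma called the latter pair above CL, by 1.01 and 1.36 on the log2 scale.

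Of 13 genes listed for IL-6 family, STAT3 and related cytokine signalling, 6 were higher with the score. Stat3, the transcription factor of the pathway, stood at 11.1, 12.6, 12.0, 14.001, 17.8, 17.0, 18.7 and 20.1 RPKM (rho 0.95, slope 0.31 ± 0.06), where the lower 3 hemispheres fell inside the CL range of 8.37 to 13.01. Its feedback inhibitor Socs3 ran from 2.28 to 9.71 RPKM (rho 0.98, slope 0.68). The IL-6 family ligand Clcf1 (0.90) also passed, as did Il4ra (0.98), Jak3 (0.93) and Il1r1 (0.93), which serve IL-4, common gamma chain and IL-1 signalling. The shared receptor Il6st (0.38) and the kinases Jak1 (0.00) and Jak2 (0.10) had no order.

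Of 24 cell division genes 16 reached 1 RPKM and 12 of them were higher with the score (median rho 0.90). Mki67, a gene of the same kind, is part of the score, so this rank is partly built in. All 12 that were tested were called above CL. Genes low in CL can pass the filter through MCAO, so that count is partly set by it. Mcm4, a subunit of the replicative helicase, stood in perfect order at 3.29, 3.34, 3.94, 3.94, 4.12, 4.34, 4.42 and 4.64 RPKM with a slope of only 0.19 ± 0.02. Ccnb2 (cyclin B2) ran from 0.717 to 2.42 RPKM at a slope of 0.60 and Top2a (topoisomerase) from 1.14 to 3.27 at 0.55. The median slope of the list was 0.39, and differences of slope within it were not tested. Pcna, the replication clamp, ran from 20.8 to 31.3 RPKM (rho 0.90, slope 0.20).

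Of 20 matrix genes, 7 were higher with the score, among them Col4a1, Dcn, Fn1, Adamts1, Bgn and Mmp14, with a list median rho of 0.82. Fibronectin (Fn1) ran from 9.43 to 16.6 RPKM (rho 0.95, slope 0.24). Sparc (−0.43), Adamts4 (−0.19) and Col6a1 (−0.17) did not follow. Of the 8 iron and metallothionein genes Ftl1, the ferritin light chain, was the one higher with the score (230 to 411 RPKM, rho 0.93), and of 12 stress genes Hmox1, the heme oxygenase, was (3.42 to 14.8 RPKM, rho 0.98).

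Among 15 genes of the blood-brain barrier endothelium only Pecam1 reached the threshold (rho 0.95), the median was 0.07, and the tight junction gene Cldn5 (rho 0.64) and Ocln (0.12) were called above CL by 0.43 and 0.34 on the log2 scale. None of 11 mural cell genes reached it. Tagln, a smooth muscle actin-binding protein, was 1.32 ± 0.13 above CL on the log2 scale (3.99 to 7.52 against 1.74 to 2.92 RPKM, limma adjusted p = 0.000245) with a rho of 0.74. Of 10 genes of endothelial activation, Adm and Tnfrsf12a were higher and the median rho was 0.55, while the mean level of the list had a rho of 0.93 with the score. Tnfrsf12a, the receptor for TWEAK, was in perfect order at 4.90, 5.35, 5.92, 6.64, 8.80, 9.98, 10.9 and 12.1 RPKM, all above the CL range of 2.78 to 3.81.

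**Figure D3:**
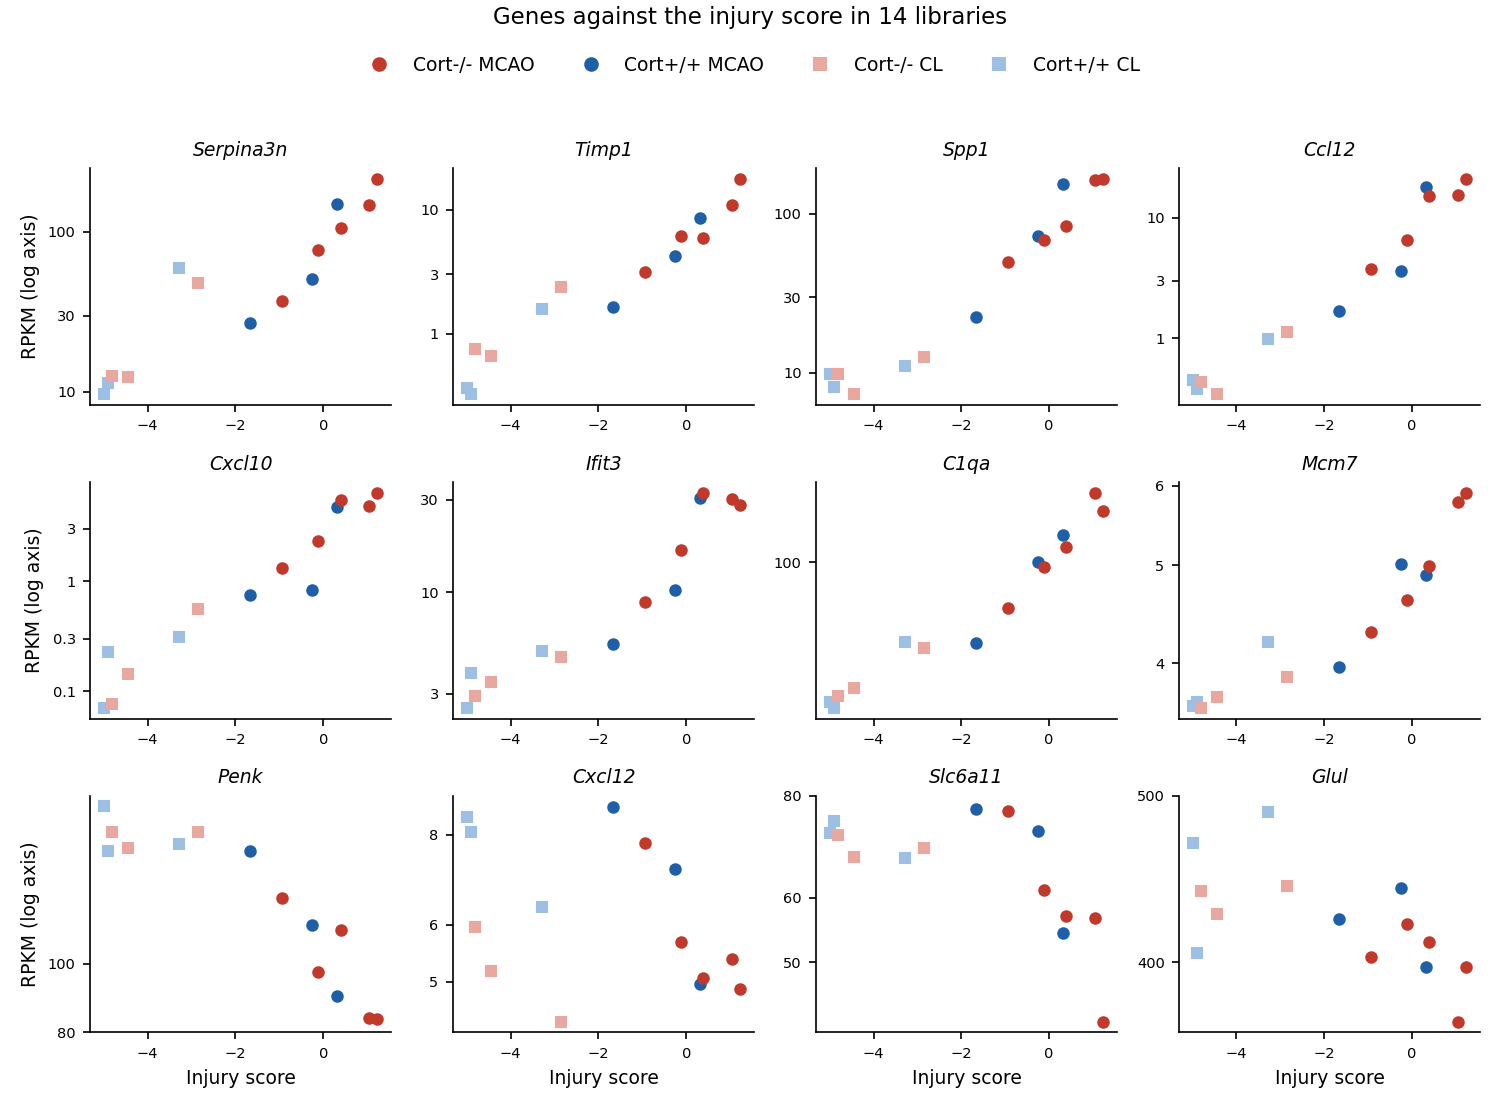
RPKM of 12 genes (log axis) against the injury score, with MCAO libraries as circles, CL libraries as squares and genotypes in red (Cort-/-) and blue (Cort+/+). Serpina3n and Timp1 climb along the whole MCAO range, Ifit3 levels off in the 4 hemispheres of highest score, and Penk descends from 144 to 83.5 RPKM.

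Among neuronal genes, several of striatal output neurons and of GABAergic cells were lower with the score. All 17 medium spiny neuron genes at 1 RPKM or more had a negative rho (−0.93 to −0.24, median −0.83), all 17 were in reverse order in the 3 Cort+/+ libraries and 4 of 17 were lower in the 5 Cort-/- ones, and 16 of 17 were called below CL. Penk, Pdyn, Drd2 and Tac1 reached −0.9, though Penk had a rho of −0.86 on TPM. Penk, the precursor of enkephalins (chr4:4132722-4141856), stood at 144, 124, 114, 97.2, 90.0, 112, 83.8 and 83.5 RPKM, and only the lowest-scoring hemisphere touched the CL range of 144 to 167. Its slope was −0.28 ± 0.05 and its log2 difference from CL −0.52 ± 0.11 (limma, adjusted p = 0.00961). The adenosine receptor gene Adora2a (4.67 to 15.8 RPKM, slope −0.47) and the dopamine receptor gene Drd2 (5.67 to 12.8, slope −0.40), both of indirect pathway neurons, were steeper than Drd1 of the direct pathway (5.92 to 10.3, slope −0.20). That difference of slopes was not tested.

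Ppp1r1b (DARPP-32), a phosphatase regulator in these neurons, was the exception to the order. It read 114, 81.9, 82.3, 76.6, 71.8, 84.9, 57.8 and 87.3 RPKM (rho −0.24), with all 8 below the CL range of 117 to 167 (log2 difference −0.71, limma adjusted p = 0.0029). Every MCAO library lay below every CL library for 272 (1.80%) of all 15125 genes. The mean list level, relative to CL, was −0.20, −0.50, −0.58, −0.78, −0.87, −0.59, −1.13 and −0.95 on the log2 scale, and Cort-/- replicate 5 was less depleted than its score neighbours.

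Of 11 GABAergic interneuron genes 4 were lower with the score, Slc32a1, Gad1, Gad2 and Kcnc1, and none of the 11 was called against CL, which does not show that they equalled it. Gad1, a GABA-synthesising enzyme (rho −0.93, or −0.83 on TPM), stood at 96.3, 100, 89.5, 87.6, 86.1, 87.2, 78.2 and 83.0 RPKM, so 2 of the lower-scoring hemispheres exceeded or matched the CL range of 90.4 to 99.4 and the other 6 were below it. Sst, the peptide somatostatin, ran from 177 to 136 RPKM (rho −0.81, slope −0.13 ± 0.03). Npy (0.45) and Vip (0.67) had positive values.

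Cortical glutamatergic genes had no order (12 genes, none past either threshold, median rho 0.18). Camk2a, a kinase of excitatory synapses, lay at 386 to 471 RPKM in MCAO against 491 to 566 in CL and was called lower (−0.25 on the log2 scale, limma adjusted p = 0.00599) with a rho of 0.19, so all 8 hemispheres lay below CL in no order of score. Such a position, with every MCAO library below every CL library, was held by 1.80% of all genes. Glutamate receptor and postsynaptic density genes had a median rho of −0.67 with none of 15 past the threshold, though 9 were called below CL. None of 13 myelin genes passed either threshold, with a median rho of −0.36 (range −0.76 to 0.74) and Mbp at −0.71. That median ran from −0.57 to −0.11 when 1 library was left out. Oligodendrocyte precursor genes had a median of 0.14, and none passed either. Among 11 immediate early genes only Fosl1 (0.98) and Atf3 (0.93) were higher, while Arc (−0.17), Junb (0.24) and Fos (0.19) had no order. Of 12 cytosolic ribosome genes 2 were higher with the score, although all 12 had a positive rho (median 0.76, median slope 0.13). Limma called 11 of the 12 above CL.

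Lists for brain regions checked the dissection. Median rho was −0.50 for 8 hypothalamic, −0.40 for 7 thalamic, −0.62 for 4 olfactory bulb and 0.07 for 5 dentate gyrus genes. Of 7 cerebellar genes 3 reached 1 RPKM (median −0.81), and Car8 among them went the other way (0.74). Pcp2, Gabra6, Cbln3 and Fat2 averaged 0.027 to 0.19 RPKM, so that median is no reading of cerebellar tissue. The hypothalamic level was 0.44, −0.03, 0.14, 0.10, 0.04, −0.16, 0.19 and −1.09 on the log2 scale relative to CL, lowest in Cort-/- replicate 4, and Cort+/+ CL replicate 3 was also low at −0.86. Red cell genes had a median rho of 0.12 that joined opposite orders, since 4 of 5 were higher with the score in Cort-/- and all 5 were in reverse order in Cort+/+. The median was −0.01 for choroid plexus genes, which became 0.05 on TPM. The part of tissue makeup in the gene lists above was not tested.

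Among the genes past the threshold over 8 libraries, those with the largest slopes that also held in both genotypes were Ccl12, Ms4a6c, Serpina3n, Timp1, Spp1, Msr1, Mx2, Ms4a6d, Cxcl10 and A2m. Ms4a6c, a membrane protein of monocytes and macrophages (chr19:11446718-11462204), stood at 0.421, 1.13, 1.16, 1.86, 4.74, 2.61, 4.44 and 4.76 RPKM with a slope of 1.16 ± 0.20. Its CL range of 0.173 to 1.39 contained the 3 lowest hemispheres, and its reads may be shared with the paralog Ms4a6d (slope 1.03 ± 0.12). A2m, a protease inhibitor, ran from 2.90 to 18.9 RPKM across a CL range of 1.33 to 9.27 and was not called between hemispheres (log2 difference 1.23, limma adjusted p = 0.137). Mx2, an interferon-induced GTPase, ran from 0.374 to 2.68 RPKM and was not called either (1.22, adjusted p = 0.064).

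The steepest lower genes of the same kind were Gprin3, Cxcl12, Slc35d3, Penk, Slc6a11, Zcchc12, Rerg, Dlx6, Grm4 and Lrrk2. On TPM, Penk (−0.86), Zcchc12 (−0.88), Dlx6 (−0.81), Grm4 (−0.83) and Lrrk2 (−0.76) missed the threshold, and after median-ratio scaling Slc6a11 (−0.88), Dlx6 (−0.86) and Lrrk2 (−0.83) did. Cxcl12, a chemokine of vessels and meninges, stood at 8.75, 7.80, 7.17, 5.67, 4.97, 5.06, 5.37 and 4.89 RPKM (slope −0.31 ± 0.07). Only the lowest-scoring hemisphere lay outside the CL range of 4.401 to 8.47, and the mean difference from CL was −0.01 on the log2 scale (limma adjusted p = 0.977). Gprin3, a neuronal regulator of G protein signalling, ran 2.80, 2.84, 2.41, 2.42, 2.10, 2.28, 1.58 and 1.64 RPKM and was called below CL (−0.46, adjusted p = 0.048). Slc35d3, needed for dopamine receptor trafficking (slope −0.29 ± 0.04), and Dlx6, a transcription factor of GABAergic neurons (4.13 to 2.72 RPKM), were called below CL as well.

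Against CL, which took no part in the score, the higher genes were mostly raised, and most lower ones lay below CL without a call. Over 15063 genes limma called 1176 (7.81%) above and 825 (5.48%) below CL in MCAO, as the mean of both genotypes. The count below CL was 332 on TPM, 361 with limma-voom, 416 for genes above 0 in at least 2 libraries and 206 with the replicate number as a block, which also gave 533 above. Of 543 higher genes tested 358 (65.9%) were above and 0 below, and 519 had a positive difference. Every MCAO library lay above every CL library for 216 of the 573 higher genes (37.7%), against 597 (3.95%) of all 15125. Of the 280 lower genes 57 (20.4%) were called below CL and 1, Gm49450, above. Every MCAO library lay below every CL library for 12 of the 280 (4.29%), against 272 (1.80%) of all 15125. A positive difference was found for 18 of the 280 (6.43%), and the median difference over all genes was −0.02 on the log2 scale. Below-CL calls among them were 26 without Cort-/- CL replicate 1, 32 without Cort-/- CL replicate 3, 37 without Cort-/- MCAO replicate 1, 29 without Cort+/+ CL replicate 3, and 24 and 22 when replicate 2 or 3 of Cort+/+ MCAO was left out. With the replicate number as a block, 192 of the higher genes were above and 8 of the lower ones below. The number called above CL over all genes was 782 without Cort+/+ MCAO replicate 3. That below CL was 373 and 374 when replicate 3 or 2 of Cort+/+ MCAO was left out, 450 and 548 without replicate 1 or 3 of Cort-/- CL, and 503 without replicate 3 of Cort+/+ CL.

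Not all genes of the ischemic hemisphere were graded. Of the 1170 genes above CL that were not score genes, 358 (30.6%) were higher with the score and 88 (7.52%) had a rho of 0 or below. Among list members called up with a rho under 0.5 in size were the pericyte gene Vtn, the potassium channel gene Kcnj10, Ocln, Notch3, Sall1, Col1a1, Selplg, H2-Aa and Cd74. Those called down were Cd4, Ppp1r1b, Camk2a, Grin1, Grin2a and the myelin gene Mobp. These genes differed from CL on average and had little order among the ischemic hemispheres.

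**Figure D4:**
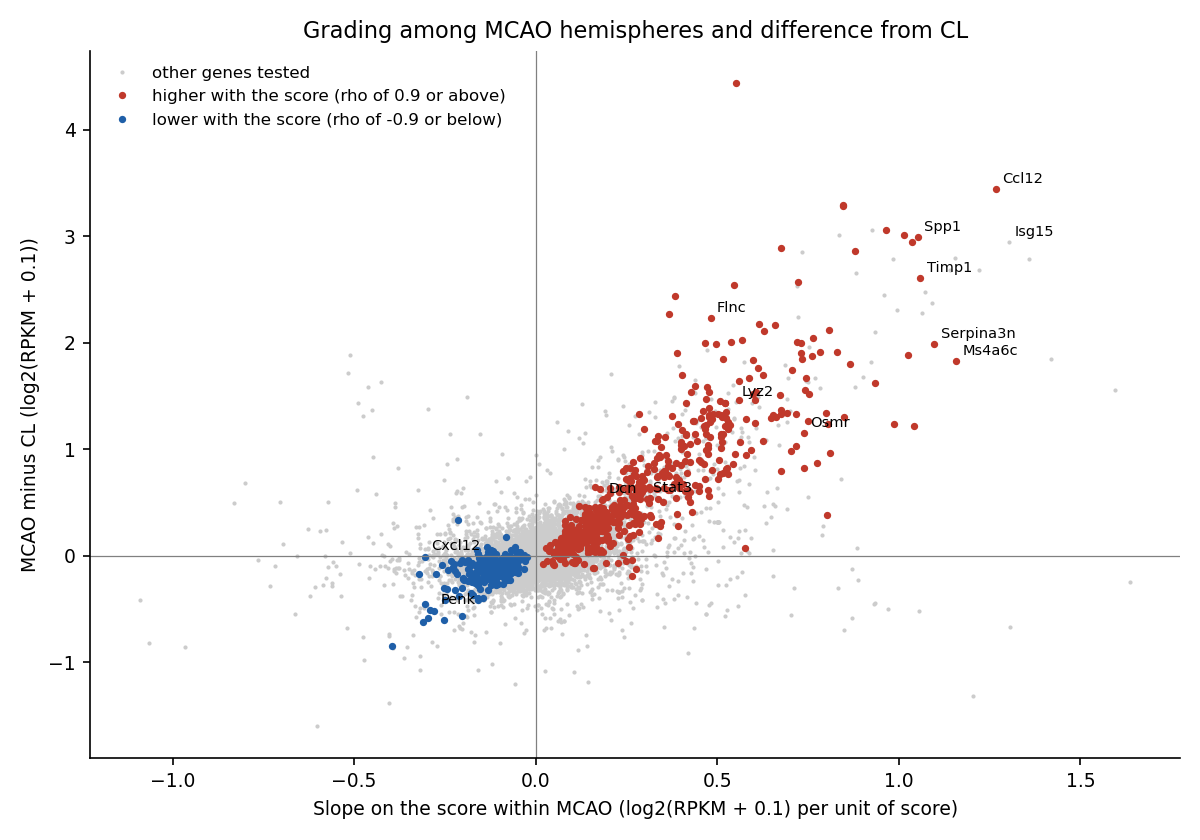
Slope on the score among the 8 MCAO libraries (log2 per unit) against the log2 difference between MCAO and CL for each gene, with genes higher and lower with the score coloured. Higher genes fall at positive differences for 519 of 543, and lower genes cluster close to 0 with 18 of 280 at positive differences.

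The CL hemispheres gave the same scale a separate reading. Ranked on their own scores, the 6 CL libraries had 971 genes (6.42%) higher at a rho of at least 0.8 and 859 (5.68%) lower at −0.8 or below. Of the 573 genes chosen in MCAO, 150 (26.2%) were higher and 7 (1.22%) lower among CL libraries, with a median rho of 0.60 against 0.03 over all genes. Of the 280 lower genes 58 (20.7%) were lower and 1 (0.357%) higher, with a median of −0.49. These shares are a description of 6 libraries of which 2 stand well above the other 4. In the reactive astrocyte list those 2, Cort+/+ replicate 1 (0.54) and Cort-/- replicate 2 (0.48), came close to the lowest MCAO hemisphere (0.55) in mean log2 level.

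**Figure D5:**
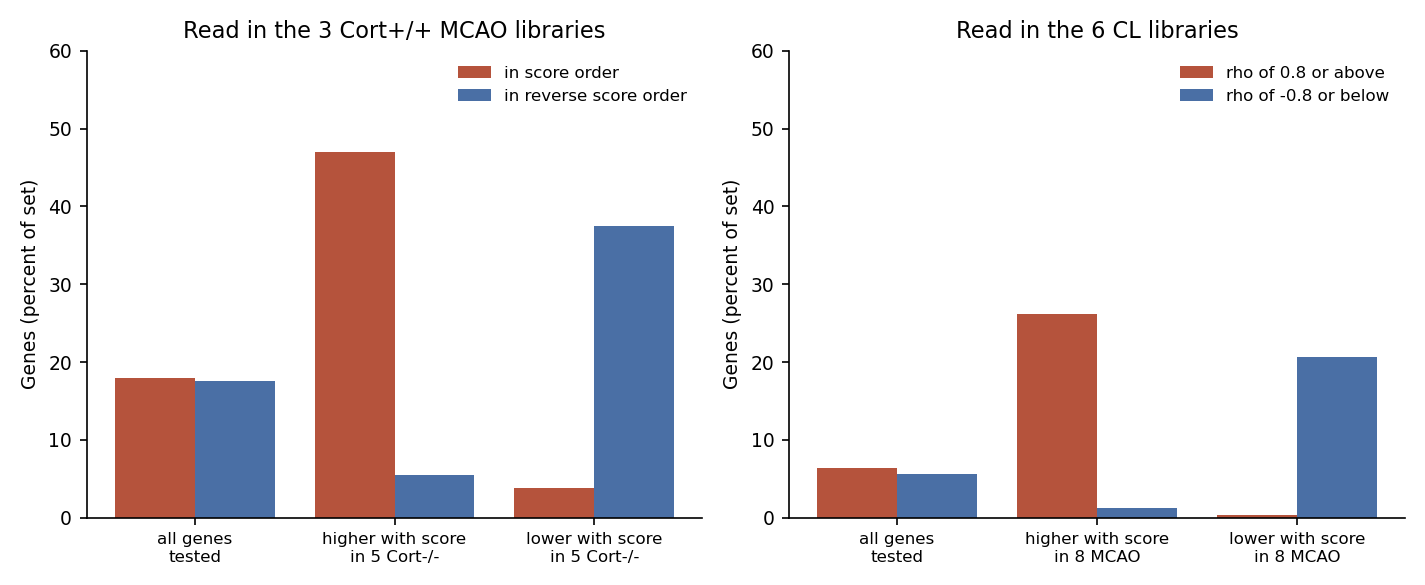
Share of genes (percent) that followed the score in libraries that had not chosen them, with genes chosen in 5 Cort-/- libraries read in the 3 Cort+/+ MCAO libraries (left) and genes chosen in 8 MCAO libraries read in the 6 CL libraries (right), beside all genes tested. Of the higher genes 46.9% stood in full score order in Cort+/+ and 26.2% had a rho of at least 0.8 in CL, against 18% and 6.42% of all genes.

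Between genotypes few genes differed, with or without the score. In the 8 MCAO libraries limma called 3 of 15125 genes (0.0198%), which were Cort, Gm49980 and Fbxo44, with 326 at an unadjusted p under 0.05, and 3 by limma-voom on recovered reads. With the score as a covariate it called 2 (0.0132%), Cort and Gm49980, with 428 at an unadjusted p under 0.05. Cort, on chromosome 4 (chr4:149209491-149211266), differed by −4.60 ± 0.33 on the log2 scale at equal score (limma, adjusted p = 0.01), a size that depends on the pseudocount because Cort-/- libraries were near 0. The predicted gene Gm49980 stood at 2.28 to 4.15 RPKM in Cort+/+ and 9.78 to 12.1 in Cort-/- (1.94 ± 0.17, adjusted p = 0.024). Fbxo44, a ubiquitin ligase component on the chromosome of Cort (chr4:148236949-148245002), stood at 33.4 to 38.9 RPKM in Cort+/+ and 26.0 to 26.8 in Cort-/-, without overlap. It was called without the score (−0.49, adjusted p = 0.046) and not with it (−0.46 ± 0.06, adjusted p = 0.22). No gene was called in either comparison without Cort+/+ replicate 2, and 1 was called in either without Cort-/- replicate 1, 2 or 5. At equal score the count was 1 without Cort-/- replicate 3 and 4 without Cort-/- replicate 4. It was also 0 at a pseudocount of 0.01 or with the replicate number as a block, and 1 on TPM or without trend.

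For the lists described most fully above, values between genotypes were also taken at equal score. The median log2 difference, Cort-/- minus Cort+/+, went from 0.36 to −0.08 for reactive astrocyte genes, from 0.64 to −0.14 for interferon genes and from −0.24 to −0.01 for medium spiny neuron genes, and no member of any of the 3 lists was called in either comparison. These 3 lists rank with or against the score, so using it as a covariate draws their difference toward 0 by construction. The values are a description, and a cause was not tested. Other lists moved away from 0, such as immediate early genes (−0.17 to −0.28) and cytosolic ribosome genes (0.02 to −0.09). A slope that differed between genotypes was called for 0 of 15125 genes (0%), with 531 at an unadjusted p under 0.05 and 0 by limma-voom. Leaving out Cort+/+ replicate 3 or 4 gave 3 and 2. With 3 libraries in a genotype, a slope there rests on very few values, and a p that misses the threshold does not show that the genotypes follow the same slope.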

How the data were processed

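RNA from 14 hemispheres was sequenced from stranded poly(A) libraries. The authors aligned the reads to GRCm39 with reanalyzerGSE, counted them on GENCODE M28 genes and deposited RPKM values per library; how gene lengths and library sizes were set is not given in the sources used here. Whole reads were recovered for 100% of 495656 values (tolerance 0.01), which gives depth; limma-voom on these reads called 1722 genes above and 361 below CL. All analyses used log2(RPKM + 0.1) and genes averaging 1 RPKM or more. A gene low in CL can pass that filter through its MCAO values alone, which favours calls above CL. Fold changes are on that scale and understate low genes.

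Spearman correlation and slopes were computed with Python 3.11.15 (scipy 1.17.1), and group differences with limma 3.58.1 in R 4.3.3 (trend, Benjamini-Hochberg over all genes tested); the limma step was tested on simulated data. Adjusted p-values measure the spread between these libraries. Apart from the replicate block, the fits took CL and MCAO libraries as independent, though some may come from the same brain. Members, the 36 gene lists (462 genes, 382 tested) and rules were chosen with earlier results of these data known. Named genes are the score genes, the 3 most abundant of each list, the 10 steepest genes each way that held in both genotypes, those at the threshold and those called between genotypes; other list members were chosen after their values were seen. Alternatives varied the pseudocount, scaling, filter, trend, score genes, rho threshold and the libraries used; thinning and the reading of CL libraries were added after the data were seen. Positions come from GENCODE M39 (GRCm39). Some genes that the rule names are not reported here.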

Additional observations from a re-analysis of the deposited data

Results flagged for a closer look

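In 183 values tested in the 5 Cort-/- MCAO libraries for a library far from its group (Dixon's ratio), 8 stood out. Chance gives about 1 in 20, so 8 is no more than chance would give. The largest group concerned Cort-/- replicate 4, the hemisphere of highest score. Its hypothalamic list level was −1.09 on the log2 scale relative to CL (others −0.158 to 0.194), its neuroblast list level −0.348 (others −0.0875 to −0.022), and its barrier endothelium list level 0.30 (others 0.134 to 0.156). Zcchc12 read 21.2 RPKM there (others 38.7 to 43.1). In Cort-/- replicate 2 the oxidative phosphorylation list level was −0.293 (others −0.152 to −0.115). Lyz2 read 46.7 RPKM in Cort-/- replicate 1 (others 14.8 to 22.8), Ramp3 8.61 RPKM in replicate 5 (others 10.2 to 10.4) and Cxcl12 7.80 RPKM in replicate 3 (others 4.89 to 5.67).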

How the results depend on the processing

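The number of genes higher with the score was 309 for genes averaging 5 RPKM or more and 1186 at a rho threshold of 0.8, and 410 to 687 when 1 library was left out; lower genes were 81 on TPM, 844 at 0.8, and 193 to 397. The share of lower Cort-/- genes in reverse order in Cort+/+ was 18.8% on TPM. Calls above CL were 533 with the replicate block and 782 to 1305 when 1 library was left out, with 192 and 271 to 395 among the higher genes. Calls below CL were 332 on TPM, 416 for genes above 0 in at least 2 libraries, 361 with voom, 206 with the block and 373 to 956 with 1 library left out; among the lower genes these were 30, 26, 36, 8 and 22 to 75. Between genotypes the calls were 5 and 1 at a pseudocount of 1 or 0.01, 11 for genes above 0 in at least 2 libraries, 0 with the block and 0 to 4 with 1 library left out. At equal score they were 0 at a pseudocount of 0.01, 1 on TPM, for genes above 0 in at least 2 libraries and without trend, 0 with the block and 0 to 4 with 1 library left out; the slope difference gave 0 to 3. The cause of these shifts was not tested beyond the smaller number of genes or libraries. The score difference kept its direction and stayed without significance in every setting run (0.38 to 1.21 with 1 library left out, 0.60 over the 3 pairs of equal number, exact p = 0.75 in a design too small to pass 0.05). Libraries of equal replicate number had correlations of −0.41 to 0.13 among MCAO libraries and −0.24 to 0.32 over 5 pairs of hemispheres. So few pairs cannot decide whether the numbers pair the samples. A blocked fit of the slope difference could not be made. Of 3588 values for named genes, 177 lost and 80 gained the threshold and none changed direction while past it. Genes under 1 RPKM, most leukocyte markers among them, were not ranked.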
